A study of Mus musculus with 4 samples.

Results

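The 44 genes described here encode the machinery of the cell division cycle and were read from RNA sequencing of Treg cells, the regulatory T cells that express FOXP3 and keep immune responses in check. They are 44 of the 23284 gene symbols in the deposited count tables, chosen by name as cell cycle genes, with earlier results of these data known but by no measured value, and all were found. They were sorted by role into 13 genes of replication and E2F control, 11 cyclins and cyclin-dependent kinases (CDKs), 17 genes of mitosis and 3 CDK inhibitors. The study has 4 libraries, all from C57BL/6 mice aged 12 to 13 months, with 1 library for each combination of tissue and genotype. Cells came from the spleen, the control tissue, or from eWAT, the white adipose tissue beside the epididymis, which is visceral fat. The groups are PPARg-2KR eWAT, wild-type (WT) eWAT, PPARg-2KR spleen and WT spleen. PPARg-2KR is an altered form of PPARG, the nuclear receptor at the centre of the fat Treg programme, in which lysines that can be acetylated are replaced by arginines. The sources used here do not give the number of animals per library, the sort gate or the cells in which the altered form is expressed.

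A dividing cell licenses its DNA for replication with the MCM helicase, copies it, and then separates the copies in mitosis. Cyclins switch on CDKs at each step, E2F factors turn on the replication genes, and inhibitors such as p21 (Cdkn1a) and p27 (Cdkn1b) hold the CDKs back. Transcripts of the mitotic genes peak late in the cycle, so that in a mixed population their level follows both the share of dividing cells and the RNA per dividing cell. In these bulk libraries the number of cells in cycle and the RNA per cell cannot be told apart.

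Total read counts were 8315569 in 2KR eWAT, 11186660 in WT eWAT, 15993889 in 2KR spleen and 13250590 in WT spleen. The 44 genes took between 0.317 and 0.332% of the reads of a library, and every one had reads in every library, with 44 reads as the fewest. Levels are given as CPM (reads scaled to a common library size after the trimmed mean of M-values, TMM), and as FPKM where genes are compared with each other, since FPKM is per transcript length. Treg markers were present throughout, with Foxp3 at 801, 1159.7, 1298 and 1408 CPM in 2KR eWAT, WT eWAT, 2KR spleen and WT spleen. Markers of other cells were also present in the eWAT libraries. The 7 macrophage and monocyte markers found summed to 1644 CPM in 2KR eWAT, 1305 CPM in WT eWAT, 72.7 CPM in 2KR spleen and 108 CPM in WT spleen. The 7 fibroblast and mesothelial markers summed to 224, 530.2, 4.13 and 7.51 CPM in the same libraries, and the 5 mast cell markers to 68.4, 12.4, 6.69 and 8.56 CPM. The part of these cells in any result below was not tested.

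The promoters of the members are shown first because genes of the same role shared sequence elements. RefSeq start sites of the GRCm38.p6 build matched 37 of the 44 members, with 42 promoters of 250 bases before and 50 after the start. The letters searched on both strands were TTTGAA (the cell cycle genes homology region, CHR), CCAAT, and TTCCCGC or TTGGCGC (E2F). The CHR stood in 9 of the 14 promoters of mitotic genes (64.3%), against 2 of 14 for replication genes (14.3%) and 17.9% of all 32851 promoters in the table. CCAAT stood in 12 of 14 mitotic promoters (85.7%) and in 11 of 14 replication promoters (78.6%), against 37.4% of all promoters. The E2F letters stood in 1 of 14 mitotic promoters (7.1%) and in 7 of 14 replication promoters (50.0%), against 6.8% of all promoters. Read on the other strand, the second E2F form can overlap CCAAT, as it does in Ccnb1. These shares are descriptions of the windows and no site was measured. Below are the 250 bases before the start for 2 helicase genes and for Cdk1 and Mki67, 5′ to 3′ on the gene's strand, with the searched letters of either strand in capitals.
Mcm5: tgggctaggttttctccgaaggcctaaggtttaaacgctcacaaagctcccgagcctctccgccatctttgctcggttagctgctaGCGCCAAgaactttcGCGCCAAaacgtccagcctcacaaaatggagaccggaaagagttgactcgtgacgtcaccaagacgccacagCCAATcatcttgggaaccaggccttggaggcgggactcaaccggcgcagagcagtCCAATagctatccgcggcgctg
Mcm6: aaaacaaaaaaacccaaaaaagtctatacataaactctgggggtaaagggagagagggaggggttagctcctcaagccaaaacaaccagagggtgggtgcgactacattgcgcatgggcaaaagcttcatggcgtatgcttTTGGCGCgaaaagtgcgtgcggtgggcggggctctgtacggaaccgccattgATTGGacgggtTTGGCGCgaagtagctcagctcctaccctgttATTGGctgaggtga
Cdk1: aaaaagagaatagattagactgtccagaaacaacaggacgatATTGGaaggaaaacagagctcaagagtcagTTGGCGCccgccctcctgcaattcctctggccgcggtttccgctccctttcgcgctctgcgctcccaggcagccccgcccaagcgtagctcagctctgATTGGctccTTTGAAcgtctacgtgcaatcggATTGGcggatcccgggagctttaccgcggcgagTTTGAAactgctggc
Mki67: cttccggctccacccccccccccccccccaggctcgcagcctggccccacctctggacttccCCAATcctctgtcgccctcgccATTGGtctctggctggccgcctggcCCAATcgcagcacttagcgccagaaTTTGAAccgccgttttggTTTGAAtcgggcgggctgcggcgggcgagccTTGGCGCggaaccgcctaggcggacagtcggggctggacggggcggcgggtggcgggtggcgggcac
In GRCm38.p6 these windows are chr8:75109259-75109508 on the plus strand (Mcm5), and on the minus strand chr1:128359706-128359955 (Mcm6), chr10:69352913-69353162 (Cdk1) and chr7:135716380-135716629 (Mki67). Mcm5 and Mcm6 each show a pair of E2F matches and CCAAT, in either orientation, with no CHR. Cdk1, the kinase that starts mitosis, shows a pair of CHR matches together with CCAAT and 1 E2F match, and so does Mki67, the gene of the proliferation antigen KI67. Neither is typical of its role. Mki67 is the 1 mitotic promoter of 14 with an E2F match. Cdk1 is counted with the cyclins and CDKs, where the CHR stood in 2 of 9 promoters (22.2%).

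Fat and spleen were compared first, with 2 eWAT against 2 spleen libraries. The 6 MCM helicase genes were lower in eWAT, the mitotic genes were mixed, and the CDK inhibitor Cdkn1a was about 50.3-fold higher. Of the 44 members, 4 were higher in eWAT (Cdkn1a, Kif23, Cenpf and Cdc25b) and 10 were lower (Mcm2 to Mcm7, Tk1, E2f2, Cdk4 and Kif20a), while 30 did not pass edgeR's quasi-likelihood test at an adjusted p of 0.05. Over all 16488 genes tested, 33.7% were higher and 23.2% were lower. The median log2 fold change was −0.23 for the members and 0.11 for all genes tested. The background depended on level, since among genes at a mean of 20 CPM or more 10.2% were higher and 42.8% lower, and among genes kept below that level 47.8% were higher and 11.2% lower. Of the 22 members at 20 CPM or more, 3 were higher and 8 lower, so the lower calls lie near the background of abundant genes. The counts moved with single libraries. Without 2KR eWAT 17 members were lower, without WT spleen 2 were higher and 4 lower, and without 2KR spleen 5 were lower.

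**Figure D1:**
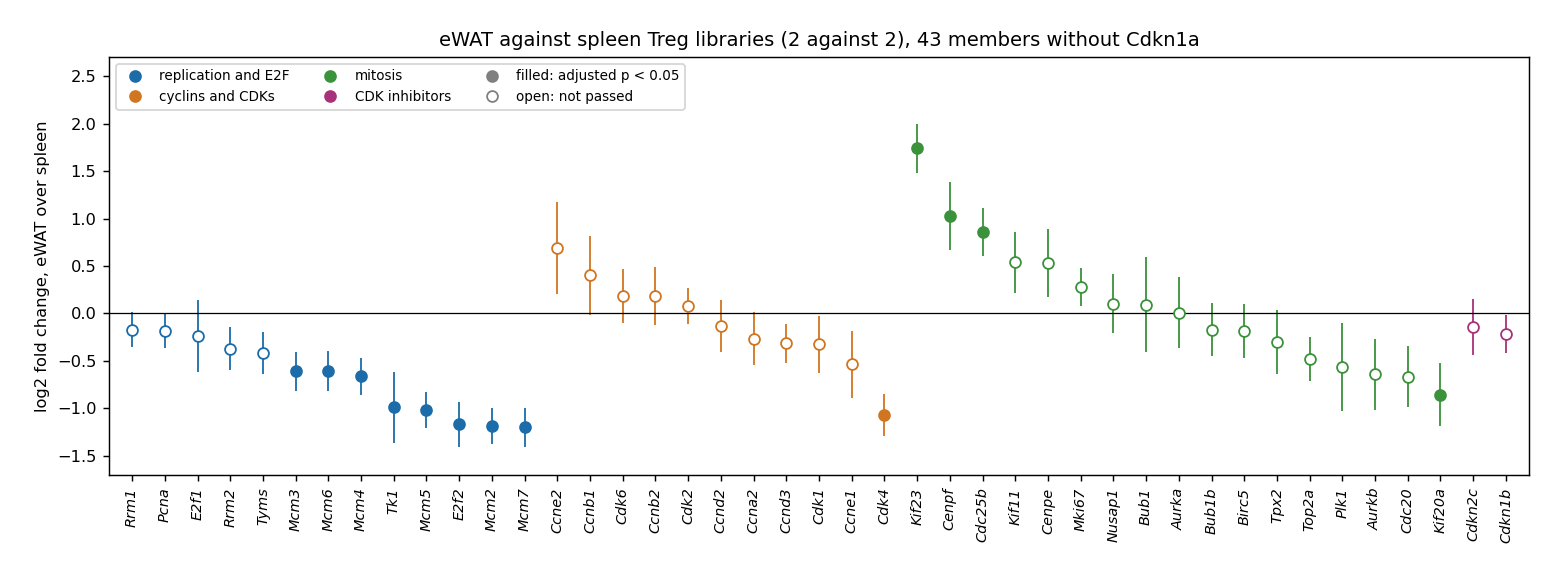
Log2 fold change of eWAT over spleen for each member except Cdkn1a, with points for the fitted value and bars for its standard error, coloured by role and ordered by value within it. Filled points passed the test, with Mcm7 lowest at −1.20 and Kif23 highest at 1.74 among the 43 genes drawn.

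The helicase that licenses and unwinds DNA was lower in eWAT in all 6 of its subunits. Mcm2 (chromosome 6, 88833468 to 88848774 in mm9) stood at 75.6 CPM in 2KR eWAT and 71.4 CPM in WT eWAT, against 161 CPM in 2KR spleen and 175 CPM in WT spleen. Both eWAT values lay below both spleen values, and Mcm2 was 2.28-fold lower in eWAT (log2 fold change −1.19, SE 0.19, edgeR adjusted p = 2.51e-04). Mcm5 (chromosome 8, 77633427 to 77652338) stood at 77.0 and 69.1 CPM in 2KR and WT eWAT, against 138 and 158 CPM in 2KR and WT spleen, with no overlap (−1.01, SE 0.19, edgeR adjusted p = 8.33e-04). Mcm7 (chromosome 5, 138605817 to 138613090) stood at 30.5 and 24.7 CPM in 2KR and WT eWAT, against 59.1 and 68.0 CPM in 2KR and WT spleen, again with a gap between the tissues (−1.20, SE 0.21, edgeR adjusted p = 4.63e-04). Its locus holds microRNA genes whose reads cannot be separated from it here. These 3 subunits passed in each of 11 alternatives. The 5 T cell markers were likewise all lower in eWAT, with sums of 2554 and 3237 CPM in 2KR and WT eWAT, against 5575 and 6235 CPM in 2KR and WT spleen. Of the 5 Treg markers, 1 was higher in eWAT (Ctla4) and 0 were lower by the same test. Foxp3 did stand lower, at 801 and 1160 CPM in 2KR and WT eWAT against 1298 and 1408 CPM in 2KR and WT spleen. The part of the T cell share in the MCM difference was not tested.

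The other 3 subunits were lower by less. Mcm3 stood at 119 and 95.7 CPM in 2KR and WT eWAT, against 144 and 183 CPM in 2KR and WT spleen (log2 fold change −0.61, SE 0.21, edgeR adjusted p = 0.0216). Mcm4 stood at 145 and 124 CPM in 2KR and WT eWAT, against 205 and 224 CPM in 2KR and WT spleen (−0.66, SE 0.20, edgeR adjusted p = 0.0116). Mcm6 stood at 277 and 251 CPM in 2KR and WT eWAT, against 401 and 406 CPM in 2KR and WT spleen (−0.61, SE 0.21, edgeR adjusted p = 0.0253). By length Mcm6 averaged 121 FPKM over the 4 libraries, the highest of the replication genes beside Pcna at 119.7 FPKM. The level of Pcna from counts was just 0.48 of its FPKM. In each of Mcm3, Mcm4 and Mcm6, both eWAT libraries lay below both spleen libraries and WT eWAT was the lowest of all. All 6 subunits kept a negative fold change under TMM, median-of-ratios and total count scaling. Over the 11 alternatives the adjusted p ran between 8.53e-05 and 0.308 for Mcm3, between 3.62e-05 and 0.176 for Mcm4 and between 8.86e-05 and 0.242 for Mcm6, with the highest value without WT spleen in each, and none of them passed without 2KR spleen or on FPKM with either pseudocount. Under total count scaling Mcm3 and Mcm6 did not pass either, with adjusted p-values of 0.0918 and 0.0538.

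E2f2 and Tk1, which act at the entry into replication, were also lower in eWAT. E2f2, a transcription factor of the E2F family, stood at 18.1 and 14.4 CPM in 2KR and WT eWAT, against 37.8 and 35.4 CPM in 2KR and WT spleen (log2 fold change −1.17, SE 0.23, edgeR adjusted p = 0.00123). Tk1, the thymidine kinase that salvages nucleotides for DNA, was low everywhere, at 7.06 and 5.26 CPM in 2KR and WT eWAT, against 10.8 and 13.7 CPM in 2KR and WT spleen (−0.99, SE 0.38, edgeR adjusted p = 0.0369). Tk1 did not pass without WT spleen (adjusted p = 0.181, the highest of 11 alternatives that began at 0.00387) or without 2KR spleen (0.0531), and its locus overlaps Afmid. E2f2 missed the threshold only on FPKM with a pseudocount of 1 (adjusted p = 0.0541, with the other alternatives down to 3.03e-07).

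The remaining 5 replication genes did not pass. Pcna, the sliding clamp of the DNA polymerases, stood at 66.7 and 69.5 CPM in 2KR and WT eWAT, against 79.1 and 76.3 CPM in 2KR and WT spleen (log2 fold change −0.19, adjusted p = 0.396 in edgeR). The fold changes were −0.17 for Rrm1 and −0.37 for Rrm2, the subunits of ribonucleotide reductase, and −0.42 for Tyms, thymidylate synthase, with edgeR adjusted p-values of 0.455, 0.169 and 0.121. Rrm2 and Tyms did pass without 2KR eWAT, with fold changes of −0.68 and −0.60 and edgeR adjusted p-values of 0.00637 and 0.0335. E2f1, the E2F family member best known for driving replication genes, stood at 8.09 and 10.1 CPM in 2KR and WT eWAT, against 7.93 and 13.6 CPM in 2KR and WT spleen, with the tissues overlapping.

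Of the 11 cyclins and CDKs, 1 passed, as lower, against 33.7% of all genes tested higher and 23.2% lower. Cdk4, the kinase that D-type cyclins activate (chromosome 10, 126500659 to 126504338), stood at 122 and 159.7 CPM in 2KR and WT eWAT, against 263 and 330.2 CPM in 2KR and WT spleen. Every eWAT value lay well under every spleen value, and Cdk4 was lower in eWAT (log2 fold change −1.07, SE 0.22, edgeR adjusted p = 0.00153). Without WT spleen the fold change was −0.94 with an adjusted p of 0.0503, the highest of 11 alternatives that began at 1.03e-11. Its relative Cdk6, at 17.6 and 15.0 CPM in 2KR and WT eWAT against 12.9 and 15.9 CPM in 2KR and WT spleen, did not pass (0.18, edgeR adjusted p = 0.597).

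Ccnd2 and Ccnd3, which are D-type cyclins, were the most abundant of the 7 member cyclins. By length, Cdk4 averaged 182 FPKM over the 4 libraries, Ccnd2 149.9 FPKM and Ccnd3 109 FPKM. The cyclins of replication and mitosis averaged between 4.46 FPKM (Ccne2) and 11.6 FPKM (Ccnb2). For Ccne2 the level from counts was just 0.40 of its FPKM. Ccnd2 stood at 633 and 1012 CPM in 2KR and WT eWAT, against 894 and 916 CPM in 2KR and WT spleen, so that the eWAT libraries lay on either side of the spleen ones (log2 fold change −0.13, edgeR adjusted p = 0.689). Without WT eWAT it was −0.61 (adjusted p = 9.94e-04), and over the 11 alternatives the adjusted p ran up to 0.977. Ccnd3 stood at 123 and 161 CPM in 2KR and WT eWAT, against 166 and 189 CPM in 2KR and WT spleen, all eWAT values being the lower (−0.32, edgeR adjusted p = 0.198). It passed only without WT eWAT (−0.61, adjusted p = 0.00274, in a range up to 0.945). Ccne1, a cyclin of replication onset, and Ccna2, the cyclin of replication and early mitosis, had fold changes of −0.54 and −0.27 and passed only without 2KR eWAT, with edgeR adjusted p-values of 0.0103 and 0.0175. The mitotic cyclins Ccnb1 and Ccnb2, their kinase Cdk1, and Cdk2 and Ccne2 had fold changes between −0.33 and 0.69 and did not pass.

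**Figure D2:**
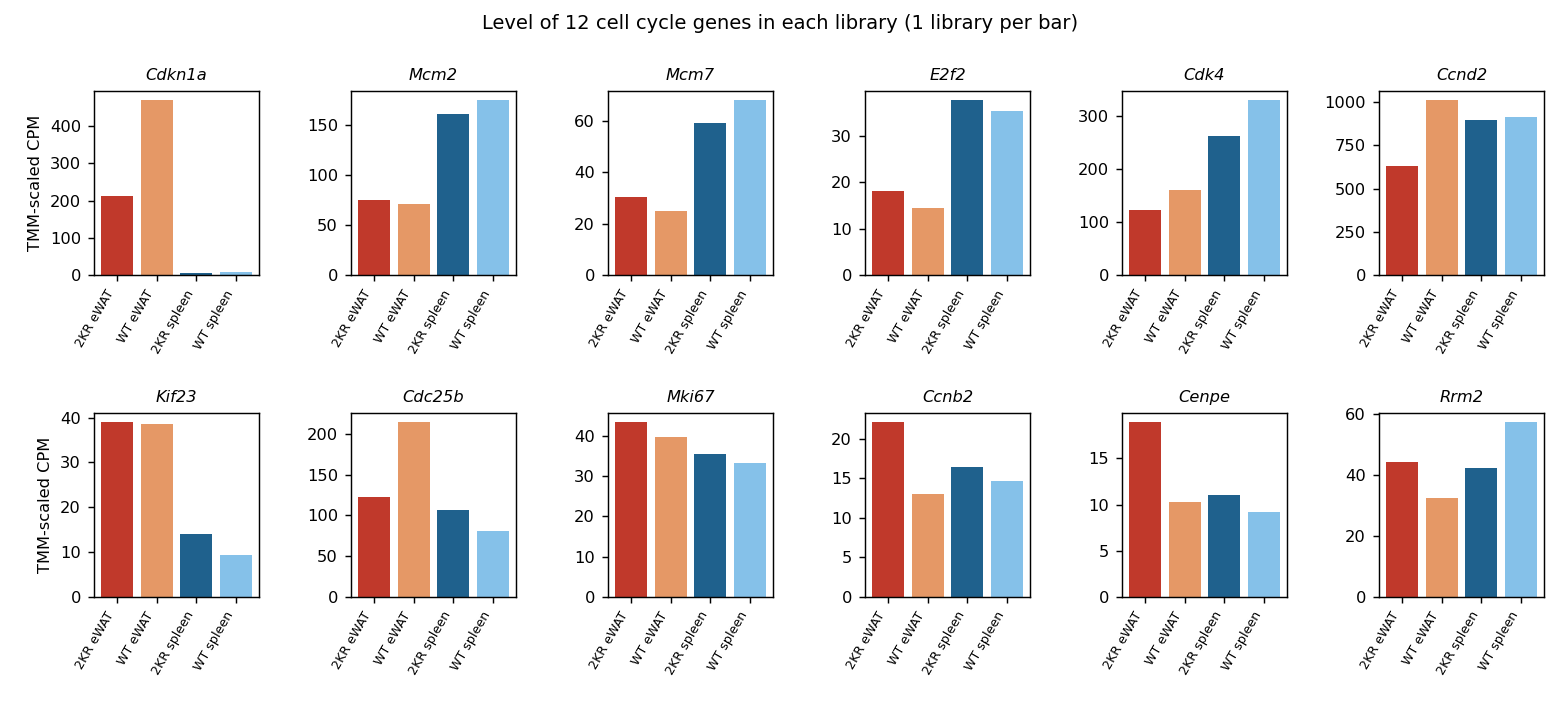
TMM-scaled CPM of 12 members in each library, 1 bar per library with no error, in the order 2KR eWAT, WT eWAT, 2KR spleen and WT spleen. Cdkn1a reached 469.8 CPM in WT eWAT against 7.11 CPM in WT spleen, while Mcm2, Mcm7, E2f2 and Cdk4 were lower in both eWAT libraries than in either spleen library.

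Among the 17 mitotic genes, 3 rose, 1 fell and 13 did not pass, and their median log2 fold change was 0.01. Over all genes tested, 33.7% were higher and 23.2% lower, with a median of 0.11. Most mitotic genes averaged below 20 CPM, where 47.8% of all genes kept were higher and 11.2% lower, with a median of 0.95. Kif23, a motor of the central spindle needed to complete cell division (chromosome 9, 61765085 to 61794606), stood at 39.1 and 38.6 CPM in 2KR and WT eWAT, against 14.0 and 9.29 CPM in 2KR and WT spleen. The eWAT values lay close together and far above spleen, a 3.34-fold difference (log2 fold change 1.74, SE 0.26, edgeR adjusted p = 1.38e-04) that passed in each of 11 alternatives. Cenpf, a kinetochore protein, stood at 14.1 and 12.0 CPM in 2KR and WT eWAT, against 6.82 and 5.98 CPM in 2KR and WT spleen (1.03, SE 0.36, edgeR adjusted p = 0.0246). Cenpf did not pass without WT spleen, without 2KR spleen or without 2KR eWAT, with fold changes of 0.89, 1.07 and 0.83 and adjusted p-values of 0.142, 0.0971 and 0.0712 (0.0182 to 0.2 over 11 alternatives).

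Cdc25b, the phosphatase that activates CDKs before mitosis (chromosome 2, 131012684 to 131024247), stood at 123 and 215 CPM in 2KR and WT eWAT, against 106 and 80.8 CPM in 2KR and WT spleen. WT eWAT stood apart as the highest, while 2KR eWAT was close to 2KR spleen (log2 fold change 0.86, SE 0.25, edgeR adjusted p = 0.0106). Without WT eWAT the fold change was 0.29 (adjusted p = 0.161) and without WT spleen 0.63 (0.204), in a range of adjusted p from 6.68e-09 to 0.204. Kif20a, a motor of cell division, stood at 10.3 and 6.92 CPM in 2KR and WT eWAT, against 15.0 and 16.2 CPM in 2KR and WT spleen (−0.86, SE 0.33, edgeR adjusted p = 0.0404). It missed the threshold in 5 of 11 alternatives, in a range from 0.00151 to 0.159, among them those without WT spleen (−0.85, 0.134), without 2KR spleen (−0.97, 0.0958) and without WT eWAT (−0.69, 0.0611), and its locus overlaps Brd8 and Cdc23.

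The commonly used proliferation markers did not pass. Mki67 stood at 43.6 and 39.8 CPM in 2KR and WT eWAT, against 35.5 and 33.2 CPM in 2KR and WT spleen, with both eWAT values slightly above both spleen values (log2 fold change 0.28, SE 0.20, edgeR adjusted p = 0.239). Top2a, the topoisomerase that untangles chromosomes, stood at 36.9 and 25.4 CPM in 2KR and WT eWAT, against 49.0 and 38.0 CPM in 2KR and WT spleen, the opposite order (−0.48, SE 0.23, edgeR adjusted p = 0.0894). Top2a passed without 2KR eWAT (−0.85, adjusted p = 8.18e-04), without the expression filter (−0.57, 0.0389) and with genotype as a further term (−0.49, 0.035), in a range up to 0.455. The other 11 mitotic genes had fold changes between −0.67 (Cdc20, the activator of the anaphase complex) and 0.54 (Kif11, a spindle motor), and of these Cdc20 and Aurkb passed as lower without 2KR eWAT, Cdc20 also without the expression filter, and Cenpe as higher without WT eWAT. They include the checkpoint kinases Bub1 and Bub1b, the mitotic kinases Aurka, Aurkb and Plk1, the chromosome passenger Birc5, the kinetochore motor Cenpe, and the spindle proteins Nusap1 and Tpx2.

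The 3 inhibitors differed. Cdkn1a, the gene of p21 and a target of p53 (chromosome 17, 29227931 to 29237667), stood at 213 CPM in 2KR eWAT and 469.8 CPM in WT eWAT, against 6.49 CPM in 2KR spleen and 7.11 CPM in WT spleen. The difference between tissues far exceeded that between genotypes (log2 fold change 5.65, SE 0.36, edgeR adjusted p = 6.19e-08). It passed in each of 11 alternatives, with log2 fold changes between 4.88 and 6.04 when a library was left out. Cdkn1b, the gene of p27, stood at 37.0 and 44.4 CPM in 2KR and WT eWAT, against 45.5 and 49.5 CPM in 2KR and WT spleen (−0.22, edgeR adjusted p = 0.364). Cdkn2c, which encodes the CDK4 and CDK6 inhibitor p18, stood at 12.2 and 16.3 CPM in 2KR and WT eWAT, against 13.8 and 17.8 CPM in 2KR and WT spleen, with overlap (−0.14, edgeR adjusted p = 0.701). Macrophage and monocyte markers were higher in eWAT in 7 of 7 and fibroblast and mesothelial markers in 7 of 7, as Cdkn1a was, and their part in the Cdkn1a difference was not tested. Between genotypes, the fibroblast, plasma cell, T cell and Treg marker sums were higher in WT eWAT than in 2KR eWAT. The plasma cell list was split, since only Xbp1 and Prdm1 were higher in WT eWAT. Sdc1, at 38.7 and 27.5 CPM in 2KR and WT eWAT, and Tnfrsf17, at 6.64 and 3.88 CPM, were higher in 2KR eWAT. In the Treg list Ikzf2 was also higher in 2KR eWAT. The macrophage sum and those of the other marker lists were lower in WT eWAT.

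Nearly all Cdkn1a transcript signal came from the downstream of its 2 annotated starts. The transcript that begins at 29230717 on chromosome 17 in mm9 had 142, 256 and 3.20 FPKM in 2KR eWAT, WT eWAT and 2KR spleen and 3.34 FPKM in WT spleen. The transcript that begins upstream, at 29227931, had 1.55 FPKM in WT eWAT and was listed at 0 in the other 3 libraries. The windows before both starts are printed below in the same order, upstream first, because this gene carried the largest tissue difference among the members. Capitals mark a p53 element, searched after the sequence had been seen, as a pair of adjoining half-sites with at most 1 mismatch.
Cdkn1a upstream start: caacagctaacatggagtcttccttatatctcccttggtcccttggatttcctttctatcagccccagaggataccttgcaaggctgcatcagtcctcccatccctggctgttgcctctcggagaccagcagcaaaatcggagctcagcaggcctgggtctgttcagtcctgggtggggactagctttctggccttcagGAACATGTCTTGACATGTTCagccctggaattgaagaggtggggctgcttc
Cdkn1a downstream start: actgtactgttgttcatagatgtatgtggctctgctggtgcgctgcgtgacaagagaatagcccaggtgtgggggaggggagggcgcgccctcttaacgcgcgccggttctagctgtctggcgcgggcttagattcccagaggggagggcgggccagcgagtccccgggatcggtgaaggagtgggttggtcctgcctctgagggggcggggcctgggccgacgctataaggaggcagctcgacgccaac
In GRCm38.p6 these windows are chr17:29090729-29090978 and chr17:29093519-29093768 on the plus strand. A p53 element stood 51 bases before the upstream start, and 29 of all 32851 promoters in the table held one by the same search. The downstream window held neither it nor any of the CHR, CCAAT or E2F letters.

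Genotype was compared next. A genotype effect common to both tissues, with tissue as a further term in edgeR, passed in 0 of 44 members, against 0.0% of all genes higher and 0.0667% lower. At an unadjusted p under 0.05 there were 2 members of 44, near the 4.71% of all genes tested. Cdkn1a had an unadjusted p of 0.00702 and an edgeR adjusted p of 0.777, and Top2a had 0.0251 and an edgeR adjusted p of 0.969. DESeq2 also called 0 members after adjustment and 1 before it. The test rests on 1 residual degree of freedom.

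Within each tissue there was 1 library against 1, so the following ratios have no replicate check, and their exact 95% intervals cover counting error on the reads only. In eWAT, most division genes stood higher in 2KR than in WT. The 12 members that stood lower were the 3 inhibitors, Cdc25b, Ccnd2, Ccnd3, Cdk4, Cdk2, E2f1, Pcna, Bub1 and Plk1. On FPKM Cdkn1b stood level (0.02), and Cdk2, Pcna and Bub1 stood above 0. Ratios of 2KR over WT, on the log2 scale, were above 0 in 32 of 44 members, against 43.8% of the 12307 genes that reached 5 CPM in a library. The median was 0.26 over the members and −0.08 over all those genes. The direction depended on level in the background, with 29.9% above 0 among genes at a mean of 20 CPM or more and 66.8% below that level, and the members had 14 of 22 and 18 of 22 above 0. Total count scaling moved the median eWAT ratio of all genes up by 0.26, so the ratios are best read relative to that median.

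By role, the eWAT ratio had a median of 0.22 in the 13 replication genes, 0.29 in the 11 cyclins and CDKs, 0.40 in the 17 mitotic genes and −0.41 in the 3 inhibitors. The median of all genes depended on level, at −0.19 for a mean of 20 CPM or more and 0.29 below it. Of the 13 replication genes 11 averaged 20 CPM or more, whereas most mitotic genes lay below it, so the roles have unlike backgrounds. At least 1.5-fold higher in 2KR eWAT were 6 members, Ccne1, Ccna2, Ccnb1, Ccnb2, Aurka and Cenpe. With 14.7% of all genes called, 6 of 44 lies near the background. At least 1.5-fold lower were 3 members, Cdkn1a, Cdc25b and Ccnd2, against 10.3% of all genes. At 20 CPM or more, 1 member, Ccna2, was at least 1.5-fold higher, against 3.51% of all such genes. Among genes kept below that level, 5 of 22 members were, against 1537 of 4624 genes.

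Cyclins E1, A2, B1 and B2 stood at least 1.5-fold higher in 2KR eWAT. Ccnb2 stood at 22.2 CPM in 2KR eWAT and 13.0 CPM in WT eWAT, with 16.5 CPM in 2KR spleen and 14.6 CPM in WT spleen, and its log2 ratio was 0.76 in eWAT (interval 0.46 to 1.09) and 0.17 in spleen (−0.11 to 0.45). Ccna2 stood at 22.9 CPM in 2KR eWAT and 13.6 CPM in WT eWAT, with 22.8 CPM in 2KR spleen and 21.2 CPM in WT spleen, so WT eWAT was the low library (0.75 in eWAT, interval 0.45 to 1.07). Ccne1 stood at 12.0 CPM in 2KR eWAT and 7.02 CPM in WT eWAT, with 13.4 CPM in 2KR spleen and 14.3 CPM in WT spleen, and again WT eWAT was low (0.76, interval 0.35 to 1.22). Ccnb1 had a ratio of 0.60 (interval 0.17 to 1.06), and Cdk1, at 16.3 CPM in 2KR eWAT and 11.3 CPM in WT eWAT, one of 0.53 (interval 0.18 to 0.89). Reads of Ccna2 may include those of Exosc9, which its locus overlaps.

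The abundant members of the same family stood the other way. Abundant genes at large did so too, with a median eWAT ratio of −0.19 at a mean of 20 CPM or more. At that level 828 of 7683 genes were at least 1.5-fold lower. Genes kept below it had a median of 0.29, so low and abundant cyclins have unlike backgrounds. Ccnd2 had a ratio of −0.68 in eWAT (interval −0.72 to −0.63) and −0.04 in spleen (−0.07 to 0.00). Cdk4 had −0.38 in eWAT (interval −0.49 to −0.28) and −0.33 in spleen (−0.39 to −0.26), so the 2KR library was the lower in both tissues, and Ccnd3 had −0.38 in eWAT (−0.49 to −0.27) and −0.19 in spleen (−0.27 to −0.11). Under total count scaling these eWAT ratios were nearer to 0, at −0.42 for Ccnd2, −0.12 for Cdk4 and −0.12 for Ccnd3. Cdk2, at −0.18 in eWAT, crossed to 0.08 under that scaling.

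In mitosis the highest ratio belonged to Cenpe, at 19.0 CPM in 2KR eWAT and 10.2 CPM in WT eWAT, with 11.0 CPM in 2KR spleen and 9.21 CPM in WT spleen, so that 2KR eWAT stood above the other libraries (0.88, interval 0.54 to 1.24). Aurka stood at 11.6 CPM in 2KR eWAT and 7.38 CPM in WT eWAT (0.64, interval 0.23 to 1.09). Top2a was higher in 2KR in both tissues, with ratios of 0.54 in eWAT (interval 0.31 to 0.77) and 0.37 in spleen (0.20 to 0.54). Mki67 had 0.13 in eWAT (−0.07 to 0.33) and 0.10 in spleen (−0.09 to 0.29), both with intervals that include 0. The lowest mitotic ratio was that of Cdc25b, −0.81 in eWAT (−0.91 to −0.71) and 0.39 in spleen (0.28 to 0.51), followed by Bub1 at −0.14 in eWAT (−0.71 to 0.42), which became 0.11 under total count scaling.

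**Figure D3:**
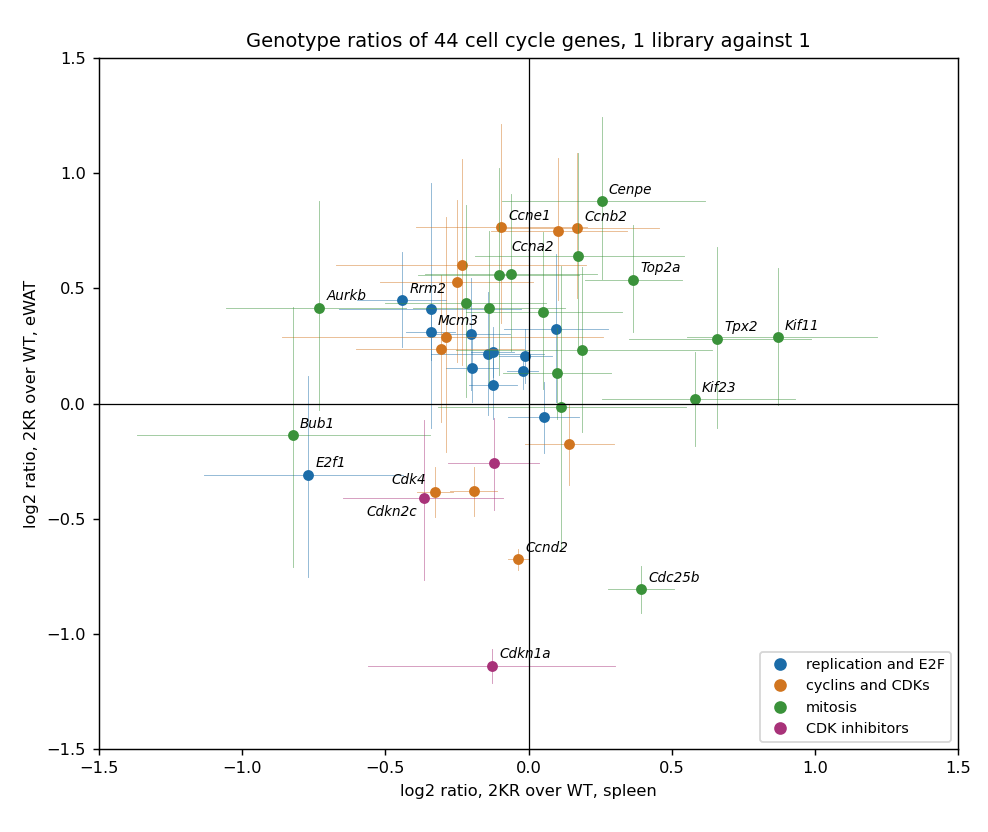
Log2 ratio of 2KR over WT in eWAT (vertical axis) against the same ratio in spleen (horizontal axis) for the 44 members, coloured by role, with lines for exact 95% counting intervals. Cdkn1a lies lowest at −1.14 on the eWAT axis, and Kif11 lies farthest right at 0.87 on the spleen axis.

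The replication genes had small ratios that pointed up in eWAT and down in spleen. In eWAT 11 of 13 were above 0, and 8 had intervals above 0 and 0 below 0, against 24.9% and 37.8% of all genes. In spleen 2 of 13 were above 0, and 8 had intervals below 0 and 0 above 0, against 30.0% and 18.4% of all genes. Of the 11 replication genes at a mean of 20 CPM or more, 8 had eWAT intervals above 0, against 15.9% of all genes at that level, and 6 had spleen intervals below 0, against 31.4%. Pcna, in eWAT, and Mcm6 and Rrm1, in spleen, were close to 0 and crossed it under total count scaling and on FPKM. Rrm2 stood at 44.4 CPM in 2KR eWAT and 32.5 CPM in WT eWAT, and at 42.4 CPM in 2KR spleen and 57.6 CPM in WT spleen, ratios of 0.45 (interval 0.24 to 0.66) and −0.44 (−0.60 to −0.29). Tk1 had 0.41 in eWAT (interval −0.11 to 0.96), and the 6 helicase subunits lay between 0.08 and 0.31 in eWAT, above 0 under each of the 3 scalings, and between −0.34 and −0.02 in spleen, where Mcm6 crossed 0. The lowest eWAT ratios of this role were those of E2f1 at −0.31 (−0.75 to 0.12) and Pcna at −0.06 (−0.21 to 0.09).

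All 3 inhibitors stood lower in 2KR eWAT, with counting intervals below 0, as 37.8% of all genes had. Cdkn1a had a ratio of −1.14 in eWAT (interval −1.21 to −1.06), the lowest of the members, and −0.13 in spleen (−0.56 to 0.30), where it had few reads. Cdkn1b had −0.26 in eWAT (−0.46 to −0.06) and −0.12 in spleen (−0.28 to 0.04). Its eWAT ratio was −0.0022 under total count scaling and 0.0155 on FPKM. Cdkn2c had −0.41 in eWAT (−0.76 to −0.07) and −0.36 in spleen (−0.65 to −0.09).

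In spleen the ratios of 2KR over WT stood near the background. They were above 0 in 16 of 44, against 41.1% of all genes, with a median of −0.11 against −0.07 for all genes. At least 1.5-fold higher were 2 members, against 3.05% of all genes, and at least 1.5-fold lower were 3, against 11.5%. The higher ones were Kif11, at 16.7 CPM in 2KR spleen and 9.05 CPM in WT spleen (log2 ratio 0.87, interval 0.55 to 1.21), and Tpx2, at 16.4 CPM in 2KR spleen and 10.3 CPM in WT spleen (0.66, interval 0.35 to 0.98). The lower ones were E2f1, Bub1 and Aurkb, with ratios of −0.77, −0.82 and −0.73. None of the 5 averaged 20 CPM or more over the libraries.

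Across the 4 libraries, WT eWAT was the lowest in 24 of the 44 members, against 20.3% of all genes, and WT spleen was the highest in 22, against 33.4%. By role, WT eWAT was lowest in 11 of 13 replication genes, 4 of 11 cyclins and CDKs, 9 of 17 mitotic genes and 0 of 3 inhibitors. The 2KR eWAT library was the lowest in 7 members, against 41.2% of all genes, and the highest in 12 members, against 24.5% of all genes, and these were 5 cyclins and CDKs and 7 mitotic genes. The ratio of 2KR over WT was higher in eWAT than in spleen in 31 of 44 members, against 46.4% of all genes. Counting intervals lay on opposite sides of 0 in the 2 tissues for 6 members, near the 13.8% of all genes, and the difference between tissues has no test at 1 library per group.

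**Figure D4:**
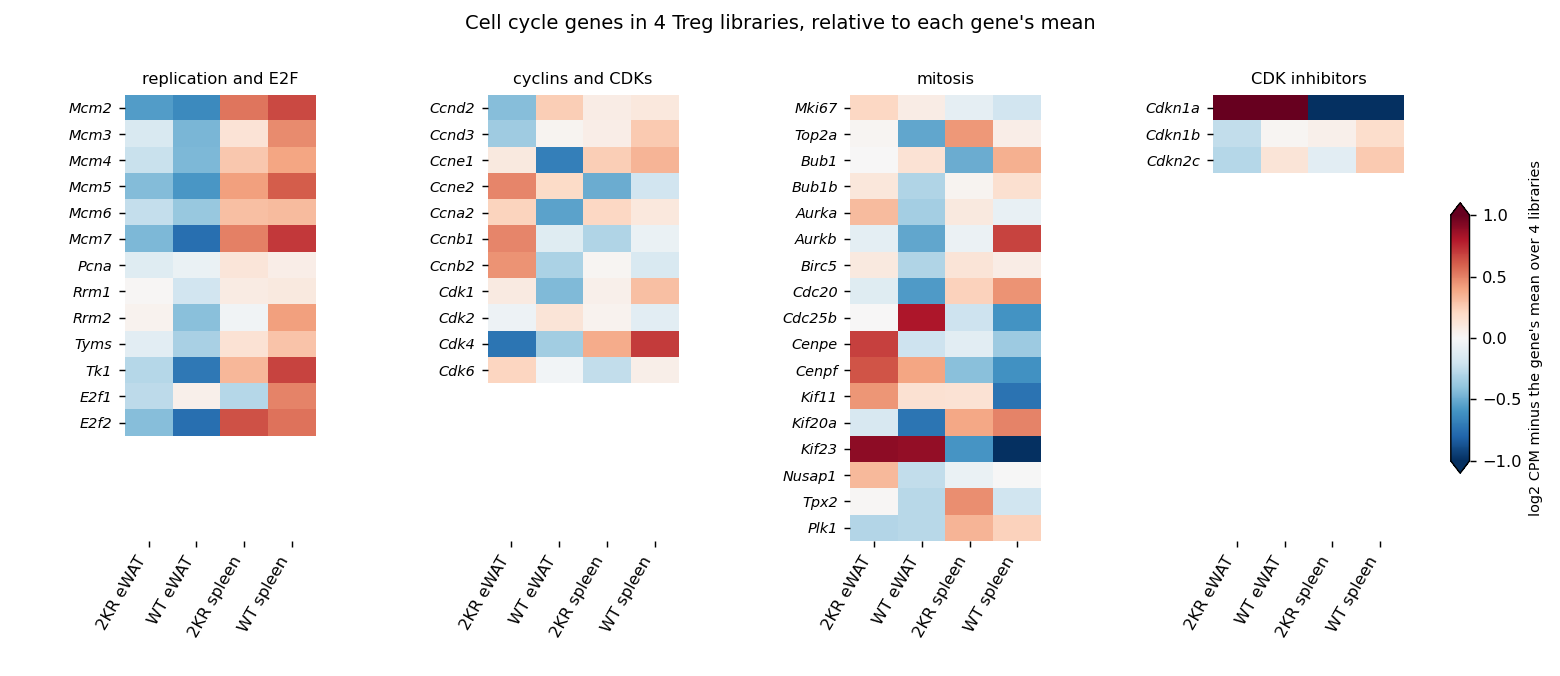
Log2 CPM of each member minus its mean over the 4 libraries, in a panel per role with a column per library, where red is above and blue below the mean and values past 1 in either direction share the end colours. In the replication panel WT eWAT was the lowest library in 11 of 13 genes, and the Cdkn1a row is red in both eWAT libraries.

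Genes of the cycle outside the 44 were mixed as well. From a list of 68, 67 were tested, of which 7 were higher in eWAT, 14 lower and 46 did not pass. Over all genes tested, 33.7% were higher and 23.2% lower. The median log2 fold change was −0.20 for the list and 0.11 for all genes tested. Ccnd1, the D-type cyclin of most other tissues, stood at 20.4 and 7.66 CPM in 2KR and WT eWAT, against 1.25 and 1.29 CPM in 2KR and WT spleen (3.46, SE 0.55, edgeR adjusted p = 2.51e-04). Its ratio of 2KR over WT in eWAT was 1.40 (lower bound of the interval 1.04), opposite to Ccnd2 and Ccnd3. Orc1, a licensing gene of the origin recognition complex, and Cdc25c, a relative of Cdc25b, had log2 fold changes of 2.11 and 1.96. The licensing genes Cdt1 (−0.25) and Cdc6 (−0.08) did not pass. The largest falls were those of Foxo1 at −1.67 and Klf2 at −1.11, factors of quiescent T cells, and of Tfdp1, the partner of E2F proteins, at −0.97. In eWAT 45 of the 67 had a ratio of 2KR over WT above 0, against 43.8% of all genes that reached 5 CPM in a library. The median was 0.18, against −0.08 for all those genes.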

How the data were processed

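RNA sequencing was done by the submitters on sorted Treg cells, with 1 library for each combination of tissue and genotype, grouped here by the labels. The deposited read counts are whole numbers per gene symbol, without scaling. Per the deposited readme and the submitters' processing notes, bcl2fastq 1.8.4 was run on 100 bp reads, Tophat 2.1.0 placed them on mm9 (at most 4 mismatches and 10 hits), and the authors made the FPKM values with Cufflinks 2.0.2, per locus and per transcript. Neither the counting tool nor its use of strand is given in the sources used here, and reads of overlapping genes (9 members) cannot be told apart. For 3 members (Pcna, Ccne2 and Ccnb1) the count and FPKM levels agreed outside the limits of 0.67 to 1.5.

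From the counts, edgeR 4.0.16 in R 4.3.3 gave TMM scaling (factors 1.16, 0.968, 0.953 and 0.934 for 2KR eWAT, WT eWAT, 2KR spleen and WT spleen) and quasi-likelihood tests over the 16488 genes that passed its expression filter, with Benjamini-Hochberg adjustment over all of them at 0.05. The tissue test set 2 eWAT against 2 spleen libraries, without a genotype term (coefficient of variation 0.221). The common genotype test had tissue as a further term (0.234). Each p-value therefore reflects just the spread among these 4 libraries, which may be technical and, in the tissue test, takes in the genotype difference. Ratios within a tissue are log2 ratios of CPM with a prior count of 2 for genes that reached 5 CPM in a library, with exact conditional binomial intervals. Alternatives used DESeq2 1.42.0, limma 3.58.1 on log2(FPKM + 1) and log2(FPKM + 0.1), other scalings, filters and a prior count of 0.5, and leaving out each library. The steps were tested on simulated data.

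The members, the list of 68 other cell cycle genes and the marker lists were chosen with earlier results of these data known. Named were a list of 20 anchors, members past a test, the 2 highest and 2 lowest eWAT ratios of each role, and up to 3 other cycle genes per direction. Named outside this rule, after their values were seen, were the spleen genes Kif11, Tpx2 and Aurkb, the licensing genes Cdt1 and Cdc6, and further members given by role. The p53 element was also searched after the Cdkn1a sequence was seen. Promoters are RefSeq's, build GRCm38.p6, and their coordinates are not those of mm9. The first base of a locus in the deposited FPKM tables counts from 0 and was raised by 1. The labels also name mm8.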

Additional observations from a re-analysis of the deposited data

Results flagged for a closer look

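For 6 members the 2KR over WT log2 ratio lay above 0 in 1 tissue and below 0 in the other, with both counting intervals clear of 0. The share of all genes at 5 CPM or more in a library that did so was 13.8%, so 6 of 44 lies near it. The differences, eWAT minus spleen, were 0.65 for Mcm3, 0.35 for Mcm4, 0.35 for Mcm5, 0.50 for Mcm7 and 0.89 for Rrm2, all with the higher ratio in eWAT. For Cdc25b it was −1.20, with the higher ratio in spleen. With 1 library per group these differences were not tested, and the intervals hold no spread between animals. The 2KR eWAT library also had the fewest reads, 8315569, and the highest TMM factor, 1.16, of the 4, and the part of this in the differences was not tested.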

How the results depend on the processing

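The count of members lower in eWAT was 10, and 6 both under total count scaling and on FPKM with a pseudocount of 1. With 1 library left out, the lower count ran between 4 and 17 and the higher count, 4 with all libraries, between 2 and 4; the lone library is then assumed to vary like the other tissue. The labels give no replicate numbers, so genotype served as the block, pairing the tissues within a genotype, and gave 4 higher and 10 lower members, without Tk1 (log2 fold change −0.99, adjusted p = 0.0558) and with Top2a.

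In eWAT the 1.5-fold counts of 6 higher and 3 lower became 16 and 1 under total count scaling and 15 and 1 on FPKM, and the higher count became 1 at 20 CPM or more. In spleen the counts of 2 and 3 became 0 and 0 at 20 CPM or more. The common genotype counts of 0 were also 0 under the 4 alternatives run for that test (median-of-ratios and total count scaling, no filter, and DESeq2). The cause of these shifts was not tested, apart from the filter, which leaves 22 members.

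Some tissue log2 fold changes crossed 0, none past the threshold on the new side. Pcna was 0.0781 and 0.0787 on FPKM with pseudocounts of 1 and 0.1. Ccnd2 was 0.0076 under total count scaling and 0.0162 on FPKM with either pseudocount. Cdkn2c was 0.0129 under total count scaling and 0.1048 and 0.1112 on FPKM. With a library left out, the values ran between −0.6386 and 0.1546 for E2f1, −0.6093 and 0.0923 for Ccnd2, −0.0049 and 0.5822 for Ccnb1, −0.3284 and 0.4169 for Ccnb2, −0.0216 and 0.2976 for Cdk6, and −0.4578 and 0.0081 for Cdkn2c. The eWAT genotype ratio crossed 0 for Cdk2 (0.0806 under total count scaling, 0.1175 on FPKM) and Cdkn1b (0.0155 on FPKM). Ratios whose intervals include 0 crossed it as well, in eWAT for Pcna (0.1996 under total count scaling, 0.0911 on FPKM), Bub1 (0.1143 and 0.0954) and Plk1 (0.0188 with median-of-ratios and 0.2355 under total count scaling), and in spleen for Pcna, Mcm6, Rrm1, Kif20a and Nusap1, none past 0.14 in size. Members with few reads, such as Plk1 with 44 in 2KR eWAT, have wide intervals.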

Other observations

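Other marker sums in 2KR eWAT, WT eWAT, 2KR spleen and WT spleen are given as values. The 5 dendritic cell markers summed to 114, 58.2, 8.85 and 14.9 CPM, the 5 B cell markers to 138, 81.0, 76.8 and 88.5 CPM and the 4 plasma cell markers found to 531, 602, 284 and 327 CPM. The 5 CD8 T and NK cell markers summed to 242, 159.9, 123 and 173 CPM, the 5 endothelial markers to 253, 151, 192 and 173 CPM, the 5 erythroid markers to 149, 139, 53.8 and 53.1 CPM and the 5 adipocyte markers to 16.3, 11.4, 1.38 and 2.42 CPM. Single genes made up most of some sums. Pecam1 alone held 112, 63.4, 191 and 172 CPM of the endothelial sums, in the same order of libraries. Cdh5, Kdr, Cav1 and Egfl7 were each lower in both spleen libraries than in both eWAT libraries. Tfrc alone held 140, 136, 52.3 and 50.8 CPM of the erythroid sums. Adipoq was at 0 reads in WT eWAT, Cav1 in both spleen libraries, and Hbb-b1 and Hba-a1 in all 4. The 5 Treg markers summed to 4398, 5897, 3981 and 4396 CPM. Cdkn2a, the senescence-linked inhibitor locus, had 0 reads in 2KR eWAT, 3 in WT eWAT, 4 in 2KR spleen and 3 in WT spleen, and was not tested.

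Among the cell cycle genes outside the 44, those known to restrain division differed in direction. Btg2 stood at 1087 CPM in 2KR eWAT and 1787 CPM in WT eWAT, against 531 CPM in 2KR spleen and 492 CPM in WT spleen (log2 fold change 1.49, SE 0.29, edgeR adjusted p = 9.95e-04). Btg2 had log2 ratios, 2KR over WT, of −0.72 in eWAT and 0.11 in spleen. Rbl2, a pocket protein that restrains E2F genes, stood at 321 CPM in 2KR eWAT and 453 CPM in WT eWAT, against 247 CPM in 2KR spleen and 189.8 CPM in WT spleen (0.83, SE 0.24, edgeR adjusted p = 0.00988). Tob1, another antiproliferative gene, had a log2 fold change of 0.54 (SE 0.19, edgeR adjusted p = 0.0246). Klf2 and Foxo1 were lower in eWAT, at −1.11 (SE 0.27, edgeR adjusted p = 0.00365) and −1.67 (SE 0.22, edgeR adjusted p = 6.22e-05), and Btg1, a relative of Btg2, did not pass, at −0.38. In the same list Fzr1 and E2f4 were lower, at −0.69 (SE 0.22, edgeR adjusted p = 0.0163) and −0.89 (SE 0.20, edgeR adjusted p = 0.00263). Rb1, Rbl1, Cdkn1c, Cdkn2b and Cdkn2d did not pass. Apart from Klf2 and Foxo1, the genes of this paragraph were named after their values were seen.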
